A study of Homo sapiens with 9 samples.

Results

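*PRSS57* encodes a serine protease stored in the azurophil granules of neutrophils, and it is described here with 9 genes used to mark early blood progenitors or myeloid cells. Those 9 are *CD34*, *KIT*, *CD33*, *CD44*, *SPI1*, *CEBPA*, *MPO*, *FLT3* and *SPINK2*. *PRSS57* was selected on its difference between cells with *PHF6* siRNA and cells with control siRNA in these same arrays, so that difference is given as a description without a test. The other 9 were chosen as lineage genes, with earlier results of these data known. Together they are 10 of the 19722 genes that a probe on the array could be matched to.

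The samples are ALL-SIL cells, an established line of T-cell acute lymphoblastic leukaemia (T-ALL), electroporated with a control siRNA, with *PHF6* siRNA1 or with *PHF6* siRNA2. Each group holds 3 biological replicates, giving 9 arrays (Agilent, custom design, a single dye) hybridized with labelled total RNA. Most labels put the harvest at 96 h after electroporation, while a free-text description puts it at 72 h. One *PHF6* reagent is a Silencer Select siRNA and the other an ON-TARGETplus SMARTpool, and which of them is siRNA1 is not stated.

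PHF6 is a chromatin-associated zinc finger protein whose gene is recurrently mutated in T-ALL. Early blood progenitors carry CD34 and the cytokine receptors KIT and FLT3 on their surface. As they enter the myeloid branch, the transcription factors PU.1 (*SPI1*) and C/EBPα (*CEBPA*) switch on the genes of the azurophil granule, the store in which myeloperoxidase (*MPO*), elastase-like serine proteases and the PRSS57 protein are packed together.

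A probe counted as well above background where Agilent's software marked its spot as such. Between 29662 and 33736 of the 57176 probes were well above background on each array. The 33586 probes that passed on at least 3 arrays were tested. Values are normalized intensities on a generalized log2 scale, obtained from the median intensity of each spot with the VSN model, which puts arrays on a common scale while keeping dim spots from spreading. Changes are compared between arrays for one probe. Probes differ in how brightly they bind, so the brightest gene and the summed level of a list describe spot signal and not amounts of RNA, and a sum is weighted to its brightest probes.

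The label of the cells was checked against 18 T-lineage markers, and 18 of 18 passed the background mark on every array, with *CD3D* the brightest. The knockdown was checked on *PHF6* itself. Its normalized value in replicates 1, 2 and 3 was 11.07, 11.17 and 10.86 with control siRNA, 9.39, 9.69 and 9.12 with siRNA1, and 9.20, 9.28 and 9.14 with siRNA2. All 6 siRNA arrays were below the lowest control array. Over both siRNAs *PHF6* fell by 1.73 on the log2 scale (SE 0.14), a level 3.31-fold lower, with an adjusted p of 0.00248. Adjusted p values come from limma with the Benjamini-Hochberg method over all tested probes, and a probe is called where its adjusted p is under 0.05. The level of *PHF6* was 3.10-fold lower with siRNA1 (adjusted p 0.0178) and 3.54-fold lower with siRNA2 (adjusted p 0.00598).

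*PRSS57* was measured by 1 probe (A_33_P3298775, designed on NM_214710), and its spot was marked well above background on every array. Normalized values were 14.74, 14.54 and 14.12 in control replicates 1, 2 and 3, with a mean of 14.47 ± 0.31 (SD, n = 3). With siRNA1 it was 13.59, 12.83 and 12.41, a mean of 12.94 ± 0.60 (SD, n = 3). With siRNA2 it was 13.71, 13.08 and 12.52, a mean of 13.10 ± 0.59 (SD, n = 3). Control was highest, and siRNA1 and siRNA2 were next to each other in the order of levels and differed by less than their spread. All 6 siRNA arrays were below the lowest control array, a split that follows from how the gene was selected.

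The same split is visible before normalization. The median spot intensity of *PRSS57* was 27457, 22470 and 19312 in the control replicates, 13492, 5740 and 5942 with siRNA1, and 12894, 9129 and 6053 with siRNA2. The dimmest control spot was brighter than the brightest siRNA spot, and replicate 1 was the brightest array of each group.

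As a description, the log2 fold change of *PRSS57* over both siRNAs against control was -1.44 (SE 0.29), a level 2.72-fold lower. It was -1.52 with siRNA1 (SE 0.34, 2.87-fold lower) and -1.36 with siRNA2 (SE 0.34, 2.57-fold lower). Both comparisons share the 3 control arrays and are not independent of each other. RNA was taken from whole cultures, so fewer cells that express *PRSS57* and less of its RNA per cell cannot be told apart.

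*PRSS57* also varied between replicate numbers. The mean over the 3 groups was 14.01 for replicate 1, 13.48 for replicate 2 and 13.02 for replicate 3, and replicate 1 was highest and replicate 3 lowest in each group. Replicate number was therefore also fitted as a block, so that siRNA and control arrays are compared within the same replicate number. In this fit the term for replicate number had an F of 28.6 for *PRSS57*, given as a description because the spread within replicate numbers enters both this F and the difference the gene was selected on. Of the other 4 tested genes among the 10, limma called the replicate term of 0, beside 35.5% of all tested probes, and 1 had an unadjusted p under 0.05. Their adjusted p values lay between 0.0712 and 0.309.

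Within replicate numbers, the difference between siRNA1 and control in *PRSS57* was -1.15, -1.71 and -1.71 on the log2 scale in replicates 1, 2 and 3. For siRNA2 against control it was -1.03, -1.46 and -1.60. Replicate 1 had the smallest difference with either siRNA. Replicates 1 and 2 were hybridized on one slide and replicate 3 on the other, and over both siRNAs the log2 fold change was -1.34 on slide 1 and -1.66 on slide 2. Each slide holds the 3 groups in equal numbers, so slide as a block leaves the value at -1.44 by design. The SE over both siRNAs was 0.11 with replicate number as a block.

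The 2 *PHF6* siRNAs were also compared with each other, which is not the difference that *PRSS57* was selected on. *PRSS57* was 0.16 higher on the log2 scale with siRNA2 than with siRNA1 (SE 0.34, 95% confidence interval -0.59 to 0.91, adjusted p 0.9998). Within replicate numbers the difference was 0.12, 0.24 and 0.11, so siRNA2 was the higher in 3 of 3. With replicate number as a block the interval was -0.13 to 0.45 and the adjusted p 0.711. A difference between the siRNAs was thus not detected. Of the 5 tested genes among the 10, limma called 0 in this comparison, beside 0% of all tested probes, and 0 of the 5 had an unadjusted p under 0.05. With replicate number as a block it also called 0 of 5, beside 0.0387% of all tested probes, and again 0 had an unadjusted p under 0.05.

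**Figure D1:**
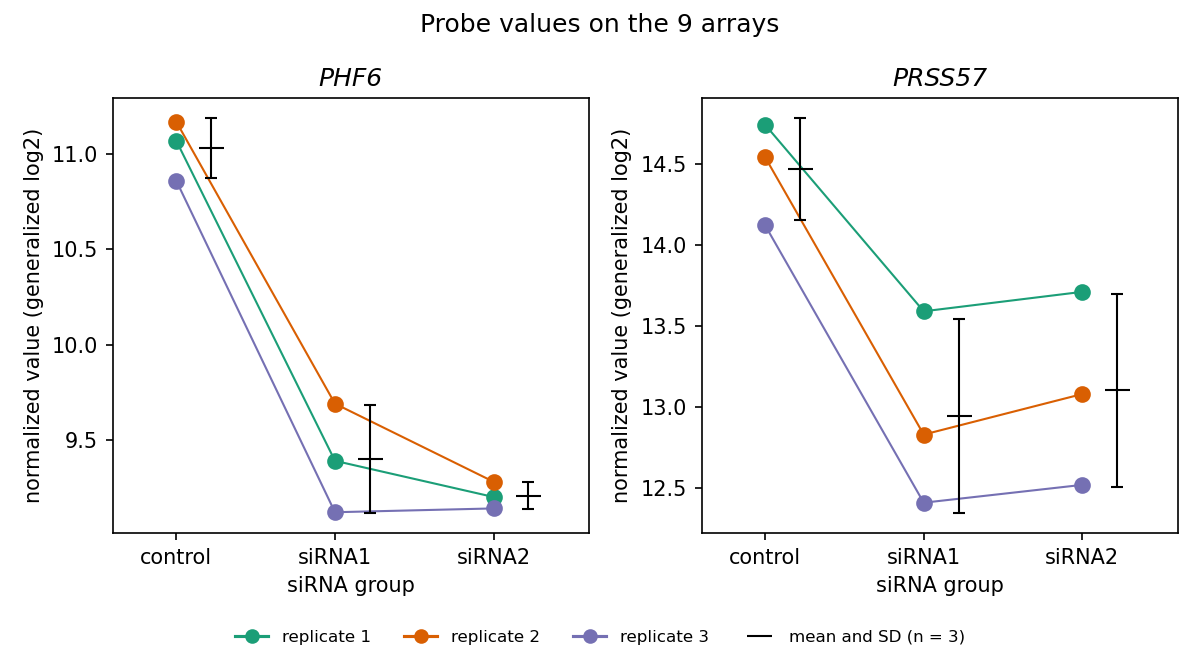
Normalized value (generalized log2) of *PRSS57* and *PHF6* on each of the 9 arrays by siRNA group, with points coloured and joined by replicate number and bars for the group mean and SD (n = 3). *PRSS57* lies between 14.12 and 14.74 with control siRNA and between 12.41 and 13.71 with either *PHF6* siRNA.

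The 9 lineage genes were measured by 12 probes, since *KIT* has 3 and *CD34* has 2. Probes that carry an identifier from outside RefSeq, such as an Ensembl transcript, could not be assigned to a gene, so these numbers leave out any such probe. Only *CD34*, *CD44*, *SPI1* and *MPO* had a probe that was tested, and the other 5 did not pass the filter. Of all 13 probes for the 10 genes, 7 were well above background on no array.

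The receptors were largely undetected. The 3 probes of *KIT*, the receptor for stem cell factor, had normalized values of 3.88 to 4.22, 3.71 to 4.13 and 3.68 to 4.31, and none was well above background on any array. *FLT3*, the receptor for FLT3 ligand, had values of 3.63 to 4.65, and *CD33*, a sialic acid-binding receptor of myeloid cells, had 3.90 to 4.58. Neither probe was well above background on any array. The dimmest spot marked well above background had a value between 4.15 and 4.58, depending on the array. At this signal over background, a difference between groups in *KIT*, *FLT3* or *CD33* was not detectable, and no fold change is given.

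*CD34*, a sialomucin on the surface of blood progenitors, was dim. Its brighter probe (A_33_P3225046) was well above background on 8 of 9 arrays, with normalized values of 4.84, 4.84 and 5.22 in the control replicates, 4.73, 4.86 and 5.0 with siRNA1, and 4.81, 4.87 and 4.88 with siRNA2. The 3 groups overlapped, and control replicate 3 was the highest array. Over both siRNAs the log2 fold change was -0.11 (SE 0.13, 95% confidence interval -0.39 to 0.17, adjusted p 0.882). Without control replicate 3 it was 0.01, so the sign of this small difference rested on 1 array. The other probe for *CD34* (A_23_P23829), with values of 3.69 to 4.48, was well above background on no array.

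*CD44*, a hyaluronan receptor found on progenitors and on many mature blood cells, was marked well above background on every array. Normalized values were 10.92, 10.96 and 10.42 in the control replicates, 10.90, 10.75 and 10.82 with siRNA1, and 11.15, 10.89 and 10.90 with siRNA2. Control replicate 3 was the lowest array and siRNA2 replicate 1 the highest, and the groups overlapped. Over both siRNAs the log2 fold change was 0.13 (SE 0.14, 95% confidence interval -0.18 to 0.45, adjusted p 0.871). It was -0.02 on slide 1 and 0.44 on slide 2, and -0.04 over all arrays without control replicate 3, so its sign also rested on that array.

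Among the transcription factors, *SPI1* (PU.1) was marked well above background on every array. Its values were 6.78, 6.64 and 6.95 in the control replicates, 6.82, 6.84 and 7.09 with siRNA1, and 6.59, 7.26 and 6.97 with siRNA2. The groups overlapped, and the lowest and the highest array both belonged to siRNA2. Over both siRNAs it differed from control by a log2 fold change of 0.13 (SE 0.16, 95% confidence interval -0.21 to 0.48, adjusted p 0.887).

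*CEBPA* (C/EBPα) was well above background on 1 array only, siRNA1 replicate 1, where its normalized value was 7.11 and its spot intensity 160. On the other 8 arrays it lay between 3.68 and 4.19. For a gene whose whole group is not well above background, the fold is a lower bound, computed with each value of that group raised, where lower, to the dimmest value marked well above background on its array. By this bound *CEBPA* was at least 1.70-fold higher with siRNA1 than with control siRNA, and at least 1.70-fold higher than with siRNA2, and both bounds rest on the 1 array. The probe did not pass the filter and was not tested.

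Of the granule protein and the protease inhibitor, *MPO* was dim and *SPINK2* was not detected. *MPO*, the peroxidase of the azurophil granule, was well above background on 7 of 9 arrays, with normalized values of 4.92, 4.58 and 5.22 in the control replicates, 4.90, 4.50 and 5.0 with siRNA1, and 5.12, 4.96 and 4.97 with siRNA2. The groups overlapped, and replicate 2 was the lowest array in each group. For both siRNAs together the log2 fold change was 0.00 (SE 0.16, 95% confidence interval -0.36 to 0.36, adjusted p 0.9996). *SPINK2*, a Kazal-type serine protease inhibitor expressed in blood stem cells, had values of 3.56 to 4.33 and was well above background on no array.

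limma called 0 of the 4 tested genes other than *PRSS57* over both siRNAs against control, and 0 of 4 had an unadjusted p under 0.05. The share called among all tested probes was 0.00893%. Against control it also called 0 of 4 with siRNA1, beside 0.00893% of all tested probes, and 0 of 4 with siRNA2, beside 0.0119%, with 0 at an unadjusted p under 0.05 in either. With replicate number as a block limma again called 0 of 4, beside 2.74% of all tested probes over both siRNAs, 0.947% with siRNA1 and 1.65% with siRNA2. In these blocked fits too, 0 of 4 had an unadjusted p under 0.05. Adjusted p values over both siRNAs lay between 0.871 and 0.9996, and with the block between 0.506 and 0.998. Over both siRNAs the confidence intervals of *CD34*, *CD44*, *SPI1* and *MPO* reached from -0.39 at the lowest to 0.48 at the highest, and with the block from -0.31 to 0.42.

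**Figure D2:**
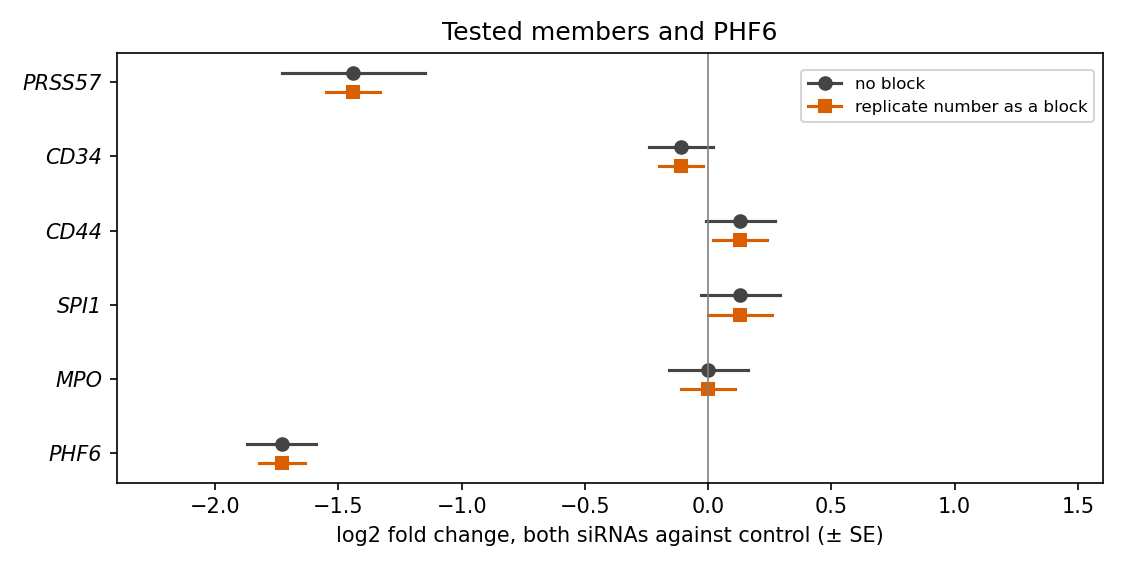
Log2 fold change over both siRNAs against control of the 5 tested genes and *PHF6*, with lines for the SE, without (circles) and with (squares) replicate number as a block. *PRSS57*, which was selected on this difference, lies at -1.44, and *CD34*, *CD44*, *SPI1* and *MPO* lie between -0.11 and 0.13.

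The genes around these 10 were described with 10 lists of 144 other genes, of which 141 had a probe and 104 were tested. Over both siRNAs against control limma called 0 of the 104, and 16 had an unadjusted p under 0.05, beside 2494 of all 33586 tested probes. With replicate number as a block it called 8 of the 104, or 7.69%, beside 2.74% of all tested probes, and 33 had an unadjusted p under 0.05, beside 7323 of all tested probes. The lists were chosen with earlier results of these data known, and each gene is represented by its brightest tested probe. The higher share among them is therefore a description and not a result about the lists. Of all tested probes 3 were called without the block and 919 with it, of which 623 were higher and 296 lower. The median log2 fold change of all tested probes was 0.00.

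Of the progenitor genes 9 of 20 were tested, with a median log2 fold change of 0.05 and 0 called with or without the block. Among those that did not pass the filter were *PROM1*, *HLF*, *MEIS1*, *GATA2*, *LMO2*, *TAL1* and *ERG*.

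Of the 12 azurophil granule genes, which code for proteins stored beside PRSS57, 11 had a probe and 7 were tested. Their median log2 fold change was 0.06 and 0 were called with or without the block. *ELANE* was well above background on 5 arrays and *PRTN3* on 8, and *AZU1*, *BPI*, *LYZ*, *RNASE2* and *RNASE3* were not tested. The summed level of the 7, each value taken back from the log2 scale, was 6892, 6303 and 4377 in the control replicates, 6118, 4885 and 4590 with siRNA1, and 7184, 6355 and 4776 with siRNA2. Replicate 1 was highest and replicate 3 lowest in each group, and *CTSC* was the brightest of the 7.

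*CTSG*, which codes for cathepsin G, was singled out after its values were seen. Its normalized value was 10.79, 10.20 and 8.69 in the control replicates, 10.72, 9.83 and 9.1 with siRNA1, and 11.16, 11.02 and 9.45 with siRNA2. As for *PRSS57*, replicate 1 was highest and replicate 3 lowest in each group, the pattern for which it was singled out. Over both siRNAs against control *CTSG* had a log2 fold change of 0.32 and an adjusted p of 0.925, where *PRSS57* had -1.44, and a difference between the genes was not tested. *CST7*, an inhibitor of granule cathepsins singled out in the same way, had normalized values of 7.23, 6.30 and 5.96 in the control replicates, 7.0, 6.01 and 5.55 with siRNA1, and 6.94, 6.67 and 5.26 with siRNA2. It too had replicate 1 highest and replicate 3 lowest in each group, with a log2 fold change over both siRNAs of -0.26 and an adjusted p of 0.926. Of the 104 list genes 42, or 40.4%, had a called replicate term, including 4 of the 7 granule genes, beside the 35.5% of all tested probes.

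Of 14 serine protease inhibitors 7 were tested, with a median log2 fold change of -0.04. *SPINK4*, a Kazal-type inhibitor, was called with the block. Its normalized value was 5.60, 5.48 and 5.42 in the control replicates, 4.63, 4.98 and 4.33 with siRNA1, and 5.23 and 4.82 in siRNA2 replicates 1 and 2, while the spot of siRNA2 replicate 3 was an outlier and was left out. It was not well above background on any siRNA1 array, so its fitted log2 fold change and its call rest in part on undetected spots. The lower bound used for *CEBPA* raised no siRNA1 value here, since each lay above the dimmest marked value of its array. In this normalization *SPINK4* was thus 1.81-fold higher with control siRNA than with siRNA1 as a plain difference, not a minimum. The fitted log2 fold change of *SPINK4* over both siRNAs was -0.67, with an adjusted p of 0.59 without and 0.035 with the block. With other normalizations, the deposited table among them, its log2 fold change was between -1.46 and -0.06. With the block its adjusted p ranged from 0.043 to 0.956. Its size and its call thus varied between these alternatives, and the part of the outlier spot in this was not tested.

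Of 14 myeloid transcription factors 13 were tested, with a median log2 fold change of -0.04 and 0 called with or without the block. Of 22 myeloid receptors and surface genes 20 had a probe and 15 were tested, with a median of -0.05. One of them, *CCR2*, a chemokine receptor of monocytes, was called with the block. Values were 5.38, 6.28 and 5.45 in the control replicates, 5.61, 6.90 and 7.43 with siRNA1, and 6.15, 7.61 and 7.97 with siRNA2. The value with either siRNA was above control in each replicate number, although the groups overlapped. The log2 fold change over both siRNAs was 1.24, with an adjusted p of 0.646 without and 0.0347 with the block, and 0.0389 to 0.103 with the block and other normalizations. Summed over the 15 genes, of which *FCER1G* was the brightest, the level was 3019, 2779 and 3308 in the control replicates, 2420, 2613 and 2950 with siRNA1, and 2199, 2548 and 2981 with siRNA2. This sum was below control in each replicate number with either siRNA. Log2 fold changes in the list ranged from -0.45 for *FCER1G* to 1.24 for *CCR2*, so not all 15 genes were lower.

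Of 18 genes that act on or below the KIT and FLT3 receptors 17 were tested, with a median log2 fold change of -0.02. *STAT5A*, a transcription factor activated by cytokine receptors, was called with the block. Values were 10.07, 9.90 and 9.78 in the control replicates, 9.78, 9.34 and 9.24 with siRNA1, and 9.74, 9.47 and 9.39 with siRNA2. Either siRNA was below control in each replicate number. The log2 fold change over both siRNAs was -0.42, with an adjusted p of 0.646 without and 0.0352 with the block, and 0.0171 to 0.0724 with the block and other normalizations.

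Of the 18 T-lineage markers all were tested, with a median log2 fold change of -0.08. Their summed level was 291622, 357096 and 311176 in the control replicates, 253136, 351342 and 297072 with siRNA1, and 267035, 313490 and 303891 with siRNA2. The sum was below control in each replicate number with either siRNA, but log2 fold changes in the list ranged from -0.76 to 0.71, and 3 of the 18 were above 0. *CD7*, an early T-lineage surface protein, and *PTCRA*, the pre-T cell receptor alpha chain, were called with the block.

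*CD7* had normalized values of 13.46, 13.12 and 13.32 in the control replicates, 12.90, 12.30 and 12.33 with siRNA1, and 12.92, 12.55 and 12.26 with siRNA2. It was among the 3 of 18 genes in its list with all 6 siRNA arrays below the lowest control array. Its log2 fold change over both siRNAs was -0.76, with an adjusted p of 0.586 without and 0.0124 with the block, and 0.012 to 0.0379 with the block and other normalizations. *PTCRA* had 8.57, 8.96 and 8.08 in the control replicates, 7.67, 7.85 and 7.25 with siRNA1, and 8.23, 8.31 and 7.54 with siRNA2. Its groups overlapped, but either siRNA was below control in each replicate number. Its log2 fold change was -0.73, with an adjusted p of 0.644 without and 0.00837 with the block, and 0.00444 to 0.0467 with the block and other normalizations.

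Of 9 B-lineage markers 6 were tested, with a median log2 fold change of -0.22. *PAX5* and *EBF1*, which define the lineage, did not pass the filter, and neither did *BLNK*. Their summed level was 8298, 6227 and 6988 in the control replicates, 6719, 5466 and 5753 with siRNA1, and 5503, 5992 and 5135 with siRNA2, with *CD79A* the brightest. The sum was below control in each replicate number with either siRNA, but log2 fold changes in the list ranged from -1.04 to 0.09, so not all 6 genes were lower. *CD79B*, a chain of the B cell receptor, was called with the block, with 9.09, 8.57 and 8.41 in the control replicates, 8.79, 7.86 and 7.97 with siRNA1, and 8.62, 7.88 and 8.15 with siRNA2. Its log2 fold change over both siRNAs was -0.48, with an adjusted p of 0.725 without and 0.0416 with the block, and 0.0269 to 0.0976 with the block and other normalizations.

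Of 7 NK markers 4 were tested, with a median log2 fold change of -0.28, and *NCAM1*, *KLRD1* and *KLRB1* did not pass the filter. Summed over the 4, the level was 38242, 39464 and 35749 in the control replicates, 29922, 30292 and 26886 with siRNA1, and 28812, 29262 and 23760 with siRNA2. *NKG7* was by far the brightest, so this sum mostly restates that 1 probe. Log2 fold changes in the list ranged from -0.56 to 0.17, so not all 4 genes were lower. *NKG7* and *GNLY*, which code for proteins of cytotoxic granules, were called with the block.

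*NKG7* had normalized values of 15.21, 15.26 and 15.12 in the control replicates, 14.86, 14.88 and 14.70 with siRNA1, and 14.81, 14.83 and 14.52 with siRNA2. *GNLY* had 6.54, 6.51 and 6.81 in the control replicates, 5.63, 6.12 and 6.08 with siRNA1, and 6.03, 6.13 and 6.35 with siRNA2. For each gene all 6 siRNA arrays were below the lowest control array. Some list genes that were not called had the same split. The share of all tested probes with this split is not given here, so it is a description only, also for *CD7*. The log2 fold change over both siRNAs was -0.43 for *NKG7*, with an adjusted p of 0.616 without and 0.0306 with the block, and 0.0289 to 0.0625 with the block and other normalizations. For *GNLY* it was -0.56, with 0.59 without and 0.0242 with the block, and 0.0126 to 0.0688 with the block and other normalizations.

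Of 10 erythroid and megakaryocyte markers 8 were tested, with a median log2 fold change of -0.11 and 0 called with or without the block. *HBB* and *PPBP* did not pass the filter. The summed level of this list, given here as a direction only, was also below control in each replicate number with either siRNA. A lower sum was thus not particular to the myeloid, T, B and NK lists. The part of the markers of any of these lineages in the *PRSS57* difference was not tested.

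Of the 8 list genes called with the block, *CD7* and *PTCRA* were called with the block under every normalization tried, and the other 6 were not called under at least 1. Leaving out a replicate number with the block in place, *CCR2* was still called without replicate 1, 0 of the 8 without replicate 2, and *CCR2*, *CD7* and *PTCRA* without replicate 3. All 8 kept their direction in these fits.

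Genes whose arrays varied most like *PRSS57* were sought among 13229 genes with a spot marked well above background on every array. Pearson's r over the 9 arrays was highest for *NCR3* (0.986), *SERPINB1* (0.984), *APOBEC3C* (0.984), *SIT1* (0.983) and *PDE6G* (0.974). It was lowest for *TFF2* (-0.966), *LINC00311* (-0.960), *ENHO* (-0.954), *SAMD4A* (-0.949) and *PGM2L1* (-0.938). Spearman's rho for the same genes was 0.967, 0.983, 0.983, 1.00 and 0.967, and -0.967, -0.967, -0.867, -0.900 and -0.967. These are descriptions over 9 arrays that share siRNA groups and replicate numbers. *NCR3* codes for an activating receptor of NK cells and some T cells, and *SERPINB1* for an inhibitor of granule serine proteases.

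*NCR3* had normalized values of 10.33, 10.33 and 9.73 in the control replicates, 9.46, 8.86 and 8.69 with siRNA1, and 9.65, 9.17 and 8.88 with siRNA2. *SERPINB1* had 13.30, 13.21 and 13.12 in the control replicates, 13.02, 12.88 and 12.82 with siRNA1, and 13.06, 12.95 and 12.90 with siRNA2. Both had the 6 siRNA arrays below the lowest control array, and both had replicate 3 lowest in each group. *PRSS57* has the same traits, so these largely follow from picking genes by their likeness to it. As a description, the log2 fold change over both siRNAs was -1.01 for *NCR3* and -0.28 for *SERPINB1*, so a like pattern came at unlike sizes.

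With the mean of each replicate number removed, r was highest for *UMODL1-AS1* (0.990), *RABGAP1L* (0.989), *BCKDHA* (0.988), *CD247* (0.988) and *DCPS* (0.987). It was lowest for *PLEKHA4* (-0.987), *PELI1* (-0.981), *OR5A1* (-0.978), *LCDR* (-0.978) and *SGK2* (-0.978). Spearman's rho for these genes was 0.867, 0.933, 0.950, 0.9 and 0.850, and -0.917, -0.917, -0.600, -0.983 and -0.683. None of the 10 was among the 10 above. *PHF6* itself had an r of 0.857 over the 9 arrays and 0.957 with replicate means removed, ranks 163 and 55 of 13229, while its rho was 0.833 and 0.450. On both scales a strong r of either sign in part restates the split between control and siRNA arrays on which *PRSS57* was selected. This holds for genes with a high rho too. With replicate means removed, a high r without a high rho mostly restates that split. The r of *CD44* was 0.0272 and -0.412, and that of *SPI1* -0.578 and -0.414.

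The gene order of the reference table (RefSeq, GRCh38.p14) was used to look at the genes beside *PRSS57*. Of the 10 genes on each side, 20 in all, 11 had a probe and 8 were tested. Their log2 fold changes over both siRNAs lay between -0.29 and 0.18, with a median of -0.16. limma called 0 of the 8, and 0 had an unadjusted p under 0.05. With the block it called 0 of 8 as well, beside 2.74% of all tested probes, with a lowest adjusted p of 0.207. There 2 of the 8 had an unadjusted p under 0.05, as did 7323 of all 33586 tested probes. The nearest tested genes before *PRSS57* were *FSTL3* (log2 fold change -0.17), *RNF126* (-0.15) and *FGF22* (0.18). The tested genes after it were *PALM* (-0.11) and *PTBP1* (-0.20). *FSTL3*, the nearest, had normalized values of 8.86, 8.66 and 8.79 in the control replicates, 8.78, 8.32 and 8.63 with siRNA1, and 8.74, 8.58 and 8.57 with siRNA2, and its groups overlapped. None of the 8 reached the -1.44 on which *PRSS57* was selected. The granule gene *AZU1*, the last of the 10 genes after it, was not tested.

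Promoter sequences are shown for *PRSS57* and for 2 other granule genes of the serine protease family, *CTSG*, which was singled out after its values were seen, and *AZU1*, which lies near *PRSS57*. Sequences come from a promoter table made from RefSeq (GRCh38.p14) that held 8 of the 10 genes, without *SPI1* and *MPO*. Each is the 250 bases before the gene's start, 5′ to 3′ on the strand of the gene. Capitals mark matches to motifs of factors that act in progenitors and myeloid or T cells, searched on both strands. The motifs and the share of 35116 promoters of the same length that hold each were GAGGAAG for PU.1 (11.2%), TTGCNNAA for C/EBP (9.05%), AACNG for MYB (70.6%), TGTGGT for RUNX (11.0%), TGGGAA for RBPJ (20.8%) and AGATAA for GATA factors (9.17%). The *PRSS57* window is chr19:695453-695702 on the minus strand, that of *AZU1* is chr19:827587-827836 on the plus strand, and that of *CTSG* is chr14:24576251-24576500 on the minus strand.
PRSS57: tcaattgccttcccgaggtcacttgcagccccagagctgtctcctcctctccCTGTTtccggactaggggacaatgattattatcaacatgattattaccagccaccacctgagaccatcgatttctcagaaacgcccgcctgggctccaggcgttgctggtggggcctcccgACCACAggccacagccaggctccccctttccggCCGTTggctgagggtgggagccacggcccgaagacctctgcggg
AZU1: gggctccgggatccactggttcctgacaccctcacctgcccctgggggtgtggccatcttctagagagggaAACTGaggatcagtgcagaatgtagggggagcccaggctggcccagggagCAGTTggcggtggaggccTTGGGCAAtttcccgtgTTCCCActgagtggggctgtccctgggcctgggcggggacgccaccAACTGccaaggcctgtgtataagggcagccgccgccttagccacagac
CTSG: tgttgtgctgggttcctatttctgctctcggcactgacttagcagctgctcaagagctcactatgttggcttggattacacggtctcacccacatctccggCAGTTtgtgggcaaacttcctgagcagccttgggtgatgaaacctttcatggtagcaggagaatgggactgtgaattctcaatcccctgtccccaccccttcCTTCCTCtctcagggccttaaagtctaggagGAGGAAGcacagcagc
In the *PRSS57* window the MYB motif matched at 198 to 194 and at 44 to 40 bases before the start, and the RUNX motif at 77 to 72 bases, all on the strand opposite to the gene. The PU.1, C/EBP, RBPJ and GATA letters were not in it. *AZU1* held 1 C/EBP, 3 MYB and 1 RBPJ match, and *CTSG* held 2 PU.1 matches, the nearer at 16 to 10 bases before the start, and 1 MYB match. None of these matches overlapped another. Matches are descriptions of the letters only.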

How the data were processed

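For each array the authors deposited spot values from Agilent Feature Extraction (9.1 in the submitters' notes, 10.5.1.1 in the file header), in the unit intensity, not normalized between arrays. The deposited per-spot flags (unit other, 0 or 1) mark spots well above background, outliers and saturated spots. The authors also deposited a VSN-normalized table in log2, used here as an alternative. No other per-sample columns were used.

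Median intensities without outlier spots, averaged over the spots of a probe, were normalized with the VSN model (own code, least trimmed squares quantile 0.9, 7 iterations). The limma fit was tested on simulated data made from normalized values, and the VSN code was not part of that test. Probes that passed the background mark on 3 or more arrays were fitted with limma 3.58.1 in R 4.3.3 with Benjamini-Hochberg adjustment, with and without replicate number as a block. Tables and figures used numpy 2.4.6, pandas 2.3.3, scipy 1.17.1 and matplotlib 3.10.9. Transcript identifiers matched 25729 of 57176 probes to 1 symbol, with the brightest tested probe representing a gene.

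Replicate numbers come from the labels. With group means removed, r was 0.311 to 0.745 in 9 pairs of arrays with the same number and -0.569 to 0.134 in 18 pairs with different numbers. Depth has no counterpart on arrays, so their number limits the precision.

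Members and lists were chosen with earlier results of these data known. Named are the members, *PHF6*, the 5 genes most and least like *PRSS57*, list genes called with or without the block (at most 4 per list, or the 2 largest without overlap where none was called) and the 3 nearest tested neighbours on each side. Untested list genes and the brightest gene of a summed list are named too. Genes singled out after their values were seen are *CTSG*, *CST7*, *SERPINB1*, *ELANE* and *PRTN3*. Alternatives were VSN on the processed signal, 75th percentile scaling, normexp with offset 50 and quantile normalization, the deposited table, other filters, outlier spots kept, slide or replicate number as a block, a trended robust prior, the mean of a gene's probes, the arrays of both siRNA groups alone, and leaving out arrays or replicate numbers.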

Additional observations from a re-analysis of the deposited data

How the results depend on the processing

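Over both siRNAs against control, 3 probes were called. The count was 5 with 75th percentile scaling and 5 with normexp and quantile normalization, 24 with slide as a block and 919 with the replicate block. Leaving out a replicate number it ranged from 0 to 672: limma called 0 without replicate 1, 2 or 3, and with the block 45 without replicate 1, 5 without replicate 2 and 672 without replicate 3. Leaving out arrays lowers the number fitted, and the cause of the other shifts was not tested. Of the tested members other than *PRSS57*, 0 were called in 30 of 30 alternatives, and 0 of all tested members were called between siRNAs in 31 of 31. These include the replicate block with each other normalization, chosen after seeing the data. The log2 fold change of *PRSS57* was -1.62 to -1.30 leaving out arrays or replicates and -1.5 to -1.34 otherwise.

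The sign of *CD34* and *CD44* reversed in single fits. Leaving out arrays or replicates, *CD34* ranged from -0.18 to 0.01, the latter without control replicate 3, and under the other alternatives from -0.25 with VSN on the processed signal to -0.09, against -0.11. *CD44* ranged from -0.04 to 0.27 and was -0.04 without control replicate 3 and -0.02 without replicate 3, with or without the block. The cause was not tested. *SPI1* ranged from 0.00 to 0.24 and *MPO* from -0.16 to 0.16. With 3 arrays per group and 5 members without a tested probe, dim members such as *KIT* and *FLT3* are limited by signal over background.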
